A study of Mus musculus with 8 samples.

Results

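Bax, Bak1, Bid, Bcl2l1, Mcl1, Casp8, Fas, Ripk1 and Gsdmd encode proteins that start, restrain or carry out cell death by apoptosis, necroptosis or pyroptosis. These 9 genes were picked by symbol from the 55450 Ensembl genes of the deposited table, and each symbol matched 1 gene. All 9 passed the filter on low counts, with at least 713 estimated counts in every library, and were tested among 16672 genes. Poly(A) RNA had been sequenced from 8 mouse livers, and every mouse was on an ethanol diet. AAV-H19, an adeno-associated virus named for the imprinted long non-coding RNA H19, had been given to 4 of them (livers 25 to 28), and AAV-Null, the comparison virus, to the other 4 (livers 21 to 24). The labels give no strain, age, sex, dose or duration, no promoter for the virus and no livers without ethanol, so the comparison is between the viruses within ethanol-fed liver. H19 was at 104 to 155 CPM (counts scaled to a common library size, with TMM factors) in AAV-H19 livers and at 0.142 to 1.41 CPM in the AAV-Null group. All 8 libraries thus matched the virus named in their labels, while the liver numbers cannot be checked this way.

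Apoptosis by the mitochondrial route begins when BAX or BAK opens pores in the outer mitochondrial membrane. BCL-XL, the product of Bcl2l1, and MCL1 hold these pore formers in check. Death receptors such as FAS recruit caspase-8, which in hepatocytes depends largely on cleaving BID to reach the mitochondria. RIPK1 acts below the TNF receptor and can lead to survival signals, apoptosis or necroptosis, and gasdermin D, the product of Gsdmd, forms the plasma membrane pores of pyroptosis once inflammatory caspases have cut it. Cell death by these routes is a known feature of alcohol-associated liver injury.

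Library totals ran from 63747006 to 78750916 estimated counts in the AAV-H19 group and from 78323212 to 82988372 in the AAV-Null group. The hepatocyte markers, 10 genes with Alb at their head, summed to 93139 to 135260 CPM with AAV-Null and 134903 to 140833 CPM with AAV-H19. The libraries thus carried the markers of the labelled tissue, and 2 of the 10 passed the test below as higher in AAV-H19 livers. AAV-Null 22 and AAV-Null 24 stood apart within their group: mitochondrially encoded RNAs took 4.57% and 5.92% of their counts, against 7.72% to 9.42% in the other 6 libraries. Values without both of these libraries, an alternative chosen after seeing the data, are given beside the genes that passed and some of the others. Long transcripts also moved with the group. Spearman's rho between a library's deviation from the mean log2 CPM and transcript length, taken across protein-coding genes that are not independent replicates, was 0.218 to 0.449 in AAV-H19 libraries and -0.413 to -0.122 in AAV-Null libraries. Within the AAV-Null group the same pair stood apart, with -0.351 in AAV-Null 22 and -0.413 in AAV-Null 24. AAV-Null 21 and 23 were at -0.122 and -0.158. A further fit therefore took out every library's length trend as an offset, called the length offset. Its results are given below, in the text or a figure, for the cell death genes picked and for the other pathway genes that passed. The markers and most other genes are given without it. By edgeR's quasi-likelihood test, with p adjusted after Benjamini and Hochberg and a threshold of 0.05, AAV-H19 livers had 934 genes up and 1012 down, or 11.7% of the genes tested. Upper-quartile scaling gave 656 up and 1557 down and a median log2 change over all genes of -0.13, in place of -0.02.

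Of the 9 genes, Bax fell and the other 8 did not pass the test. The count of 1 in 9 is close to the 11.7% of all genes called, and over all genes 6.07% were called lower and 5.6% higher. In 4 of the 9 genes the values of the groups did not overlap, Bax, Mcl1 and Gsdmd being lower and Ripk1 higher in AAV-H19 livers; over all genes the share without overlap was 23.7%, with 12.1% higher and 11.6% lower. Unadjusted p was under 0.05 for 3 of the 9 (Bax, Mcl1 and Gsdmd) and for 29.8% of all genes. The median log2 change of the 9 was -0.27, beside -0.02 for all genes tested, and 6 of the 9 fitted changes were negative. None of the 9 passed once the length offset was used, their median was -0.21, and 2.21% of all genes were called.

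**Figure D1:**
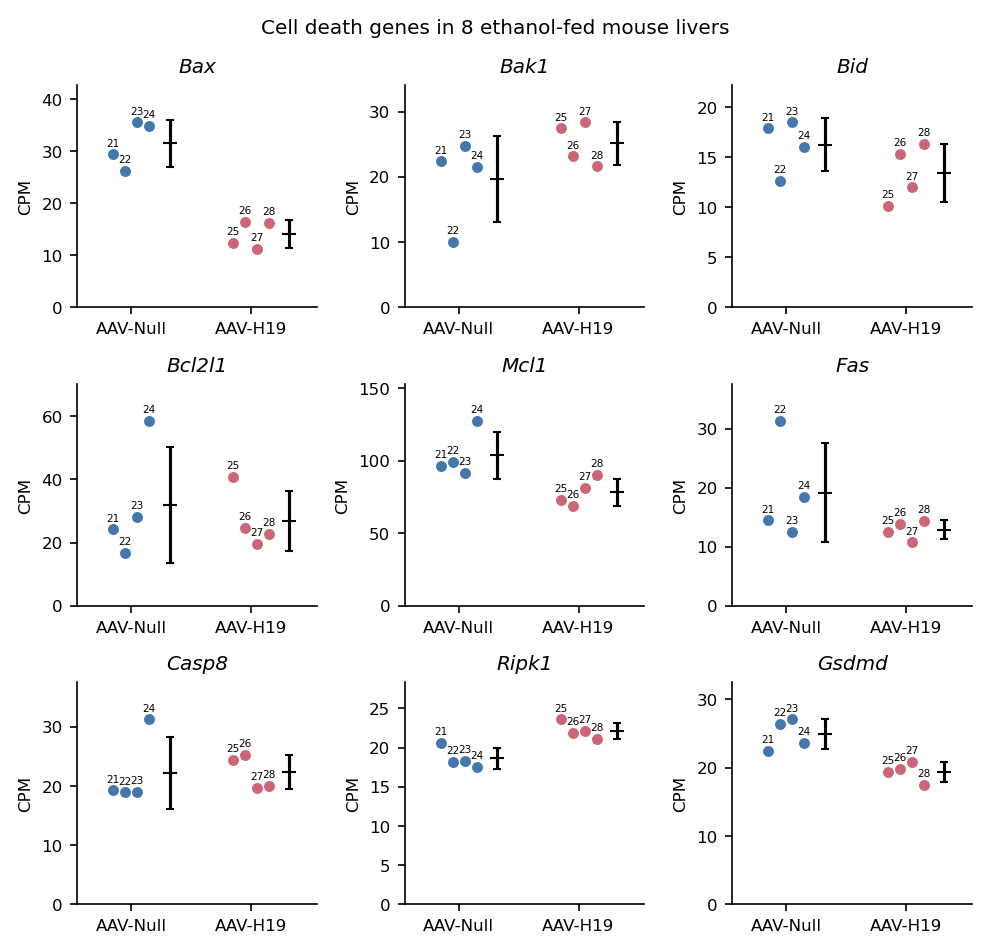
Level of each of the 9 cell death genes in CPM (vertical axes, from 0) in each AAV-Null liver (blue) and AAV-H19 liver (red), with the liver's number above each point and the mean ± SD of 4 livers as a black bar. Bax, Mcl1 and Gsdmd are lower and Ripk1 is higher in all 4 AAV-H19 livers than in any AAV-Null liver, and the other 5 genes overlap.

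BAX and BAK are the pair of proteins that form the mitochondrial pore. Bax (ENSMUSG00000003873) spans 45461697 to 45466898 of chromosome 7, minus strand (GRCm38, GENCODE M21). It was at 29.4, 26.3, 35.6 and 34.9 CPM in AAV-Null livers 21 to 24 and at 12.3, 16.5, 11.3 and 16.2 CPM in AAV-H19 livers 25 to 28. The lowest AAV-Null liver was thus above the highest AAV-H19 liver. Bax fell by 1.16 ± 0.19 log2 units (SE, edgeR adjusted p = 0.0118), or 2.24-fold, its mean going from 31.6 ± 4.45 to 14.1 ± 2.64 CPM (SD, n = 4 each). Its longest annotated transcript has 1100 nt, and with the length offset its log2 change was -0.75 (edgeR adjusted p = 0.0719). The call also ended without AAV-H19 25 (log2 change -1.10, edgeR adjusted p = 0.0535) and without AAV-H19 27 (-1.07, edgeR adjusted p = 0.0567). Without both AAV-Null 22 and 24 the call held (-1.20, edgeR adjusted p = 0.0102).

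Bax shares coding exons with Gm45808, a gene whose transcript GENCODE tags as read-through on the same strand at 45465984 to 45486811 of chromosome 7, so a read from these exons fits either gene. The sequences below show what the counting had to tell apart. Each is a stretch of coding sequence from the GENCODE M21 transcripts, with the last 20 bases of the exon upstream in lower case and the 192 bases found in both transcripts in capitals. The capitals cover the 52 bases of exon 2 of the Bax transcript and 140 of the 147 bases of its exon 3.
Bax: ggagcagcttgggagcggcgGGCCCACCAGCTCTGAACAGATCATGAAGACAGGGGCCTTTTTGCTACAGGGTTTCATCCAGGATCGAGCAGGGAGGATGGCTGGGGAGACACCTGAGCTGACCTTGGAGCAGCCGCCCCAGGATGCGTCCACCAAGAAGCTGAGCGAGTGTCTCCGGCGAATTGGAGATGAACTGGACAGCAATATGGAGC
Gm45808: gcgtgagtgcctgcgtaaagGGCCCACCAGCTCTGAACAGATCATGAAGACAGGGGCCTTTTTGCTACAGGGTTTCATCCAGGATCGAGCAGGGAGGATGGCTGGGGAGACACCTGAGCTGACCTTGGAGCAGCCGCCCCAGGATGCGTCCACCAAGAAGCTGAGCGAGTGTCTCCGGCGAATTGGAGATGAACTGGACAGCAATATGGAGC

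The 20 bases before the junction differ between the transcripts, while the shared stretch is 192 of the 867 nt of this Bax transcript. The deposited counts of Gm45808 were 0 in all 4 AAV-Null libraries, and its level was 0.261 to 0.362 CPM in AAV-H19 libraries, far below that of Bax. With Gm45808 added to Bax, an alternative chosen after seeing the data, the log2 change of Bax was -1.13 (edgeR adjusted p = 0.0128). Gm45808 also shares exons with Dhdh, whose mean level was 92.6 ± 25.5 CPM with AAV-Null and 88.2 ± 13.8 CPM with AAV-H19 (SD, n = 4 each). With all 3 genes summed the log2 change was -0.28 and did not pass (edgeR adjusted p = 0.343), a sum in which Dhdh holds most of the counts.

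Bak1, which encodes the other pore former, was at 22.4, 10.1, 24.8 and 21.6 CPM in AAV-Null livers 21 to 24 and at 27.4, 23.2, 28.4 and 21.6 CPM in AAV-H19 livers 25 to 28. AAV-Null 22 was the lowest of the 8, and the other 7 livers overlapped. The log2 change was 0.35 ± 0.26 (SE, edgeR adjusted p = 0.406) and 0.13 without AAV-Null 22. Per kilobase of the longest transcript, the scale on which levels of different genes are compared here, Bax was 2.85 to 5.65 times as high as Bak1 in AAV-Null livers and 0.866 to 1.63 times as high in AAV-H19 livers. This ratio did not overlap between groups. The highest ratio, 5.65, was that of AAV-Null 22, where Bak1 was at its lowest, and the other AAV-Null livers were at 2.85 to 3.51. Bax over Mcl1 did not overlap either, at 0.822 to 1.21 in AAV-Null and 0.432 to 0.744 in AAV-H19 livers. Bax over Bcl2l1 did overlap, at 1.39 to 3.65 and 0.704 to 1.67. Mcl1 over Bcl2l1 and Ripk1 over Casp8 overlapped as well. The reservations given for Bax hold for its ratios too.

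The antagonists of the pore formers did not pass the test. Mcl1 was at 96.3, 99.4, 91.5 and 127 CPM in AAV-Null livers 21 to 24 and at 72.8, 68.7, 81.4 and 90.1 CPM in AAV-H19 livers 25 to 28. The groups stood just apart, by the gap between AAV-Null 23 and AAV-H19 28. The log2 change was -0.41 ± 0.17 (SE, edgeR adjusted p = 0.135; unadjusted p = 0.0355). Mcl1 has a longest transcript of 3418 nt and its log2 change was -0.49 with the length offset (edgeR adjusted p = 0.147). Bcl2l1 was at 24.2, 16.8, 28.1 and 58.5 CPM in AAV-Null livers and at 40.9, 24.6, 19.7 and 22.7 CPM in AAV-H19 livers. The highest liver, AAV-Null 24, was at more than any other liver, and the groups overlapped throughout. The log2 change of Bcl2l1 was -0.24 ± 0.38 (SE, edgeR adjusted p = 0.708) and turned to 0.23 without AAV-Null 24, or 0.045 without both AAV-Null 22 and 24.

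Fas, which encodes the death receptor, was at 14.5, 31.3, 12.5 and 18.5 CPM in AAV-Null livers 21 to 24 and at 12.6, 13.9, 10.7 and 14.4 CPM in AAV-H19 livers 25 to 28. AAV-Null 22, the liver lowest in Bak1, was the highest in Fas. The log2 change was -0.57 ± 0.28 (SE, edgeR adjusted p = 0.203) and -0.24 without AAV-Null 22, or -0.062 without both AAV-Null 22 and 24. Casp8, which encodes the caspase that FAS recruits, was at 18.9 to 19.3 CPM in AAV-Null livers 21 to 23, at 31.3 CPM in AAV-Null 24, and at 24.5, 25.2, 19.7 and 20.1 CPM in AAV-H19 livers. Its group means were 22.1 ± 6.08 and 22.4 ± 2.87 CPM (SD, n = 4 each), with a log2 change of 0.01 ± 0.21 (SE, edgeR adjusted p = 0.97). Bid, the link from caspase-8 to the mitochondria, was at 17.9, 12.6, 18.5 and 16.01 CPM in AAV-Null livers and at 10.1, 15.3, 11.99 and 16.3 CPM in AAV-H19 livers. The groups overlapped, and the log2 change was -0.27 ± 0.21 (SE, edgeR adjusted p = 0.408).

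Ripk1 varied least among livers. It was at 20.6, 18.1, 18.3 and 17.5 CPM in AAV-Null livers 21 to 24 and at 23.6, 21.8, 22.1 and 21.1 CPM in AAV-H19 livers 25 to 28. Every AAV-H19 liver was above every AAV-Null liver, by a narrow margin over AAV-Null 21. The log2 change was 0.25 ± 0.14 (SE, edgeR adjusted p = 0.261). Ripk1 has the longest transcript of the 9, 6472 nt, and its fitted change turned to -0.22 with the length offset (edgeR adjusted p = 0.411). Exons of Ripk1 overlap the processed pseudogene Gm17084 on the same strand and Serpinb6a on the other. The fitted log2 change of Serpinb6a was -0.88 ± 0.20 (SE, edgeR adjusted p = 0.0301). The sources used here do not state the strand setting of the counting, so reads of such antisense overlaps may be assigned to either gene. Exons of Bid overlap those of Bcl2l13 and exons of Bak1 those of Ggnbp1 in the same way.

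Gsdmd was at 22.5, 26.3, 27.1 and 23.6 CPM in AAV-Null livers 21 to 24 and at 19.4, 19.9, 20.9 and 17.4 CPM in AAV-H19 livers 25 to 28. The groups did not overlap. The log2 change was -0.36 ± 0.15 (SE, edgeR adjusted p = 0.13; unadjusted p = 0.0335), and -0.15 with the length offset (edgeR adjusted p = 0.565). The remaining members lie on chromosome 17 at 27019810 to 27029009 (Bak1), chromosome 6 at 120891930 to 120916853 (Bid), chromosome 2 at 152780668 to 152831728 (Bcl2l1), chromosome 3 at 95658788 to 95663176 (Mcl1) and chromosome 1 at 58795374 to 58847503 (Casp8). Fas lies on chromosome 19 at 34290666 to 34327772, Ripk1 on chromosome 13 at 34002363 to 34037147 and Gsdmd on chromosome 15 at 75862327 to 75867408.

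**Figure D2:**
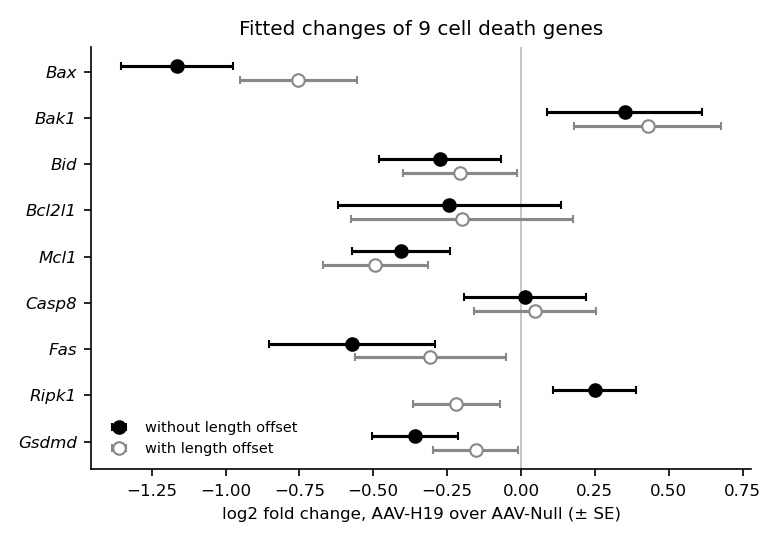
Fitted log2 fold change of each of the 9 genes, AAV-H19 over AAV-Null (horizontal axis), with bars of ± 1 SE over 8 livers, without (black) and with the length offset (open grey). The value for Bax goes from -1.16 to -0.75 and that of Ripk1 from 0.25 to -0.22, while the value for Mcl1 goes from -0.41 to -0.49.

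Levels differed widely among the 9 genes. Per kilobase of the longest transcript, Mcl1 and Bax were highest in AAV-Null livers, at 30.3 ± 4.73 and 28.7 ± 4.05 CPM per kb (SD, n = 4), and their ranges overlapped. Gsdmd followed at 13.9 ± 1.21, Bcl2l1 at 12.4 ± 7.13 and Fas at 11.8 ± 5.196 CPM per kb, which overlapped one another. Casp8 at 8.56 ± 2.35, Bak1 at 8.26 ± 2.75 and Bid at 6.73 ± 1.10 CPM per kb overlapped too, and Ripk1 was lowest at 2.88 ± 0.201 CPM per kb. In AAV-H19 livers Mcl1 stood alone at the top at 22.9 ± 2.78 CPM per kb. Bax was next at 12.8 ± 2.40 CPM per kb, and its range then overlapped those of Gsdmd, Bak1 and Bcl2l1, at 10.8 ± 0.805, 10.5 ± 1.37 and 10.5 ± 3.69 CPM per kb. Ripk1 was again lowest, at 3.42 ± 0.16 CPM per kb. The spread between livers was widest for Bcl2l1, with a coefficient of variation of 57.4% in AAV-Null and 35.2% in AAV-H19 livers, and narrowest for Ripk1, with 7.09% and 4.68%.

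**Figure D3:**
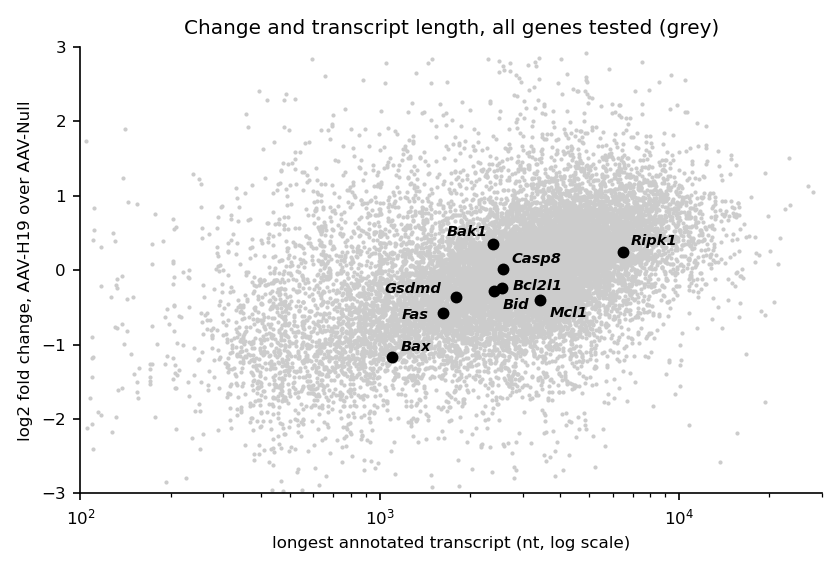
Fitted log2 fold change, AAV-H19 over AAV-Null (vertical axis), against the length of the longest annotated transcript (horizontal log axis, nt) for all 16672 genes tested (grey; 111 lie outside the axes) and the 9 cell death genes (black). Bax has the shortest transcript of the 9, 1100 nt, and the lowest change, and Ripk1 has the longest, 6472 nt.

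Among the other genes of the 6 cell death lists, the gene whose level followed that of Bax most closely was Tradd, which encodes an adaptor of the TNF receptor, with a Pearson r of log2 CPM of 0.93 over the 8 libraries. Ripk1 was most like Tab2, with an r of 0.976, and Bak1 most like Zmat3, with an r of 0.968. For Fas the nearest were Bnip3l and Bnip3, with r of 0.951 and 0.947, and for Gsdmd it was Casp1, with an r of 0.918. Fas, Bnip3l and Bnip3 were all highest in AAV-Null 22, at 31.3, 172 and 990 CPM, and next highest in AAV-Null 24. These 8 libraries share the group difference and the length trend described above, and the nearest genes are the highest of 113 candidates, so the values are a description.

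The rest of the pathways was read from the same fit in 6 lists of 120 genes, of which 113 were tested. In all, AAV-H19 livers had 8 of them up and 6 down. This is 12.4% of those tested, against 11.7% of all genes, and their median log2 change was -0.12. By list the share called was 25% for the BCL2 family, 16% for death receptor signalling and 9.52% for pyroptosis. It was 9.09% for necroptosis, 5.26% for caspases, apoptosome and inhibitors, and 5% for p53 and its targets. With the length offset 2 of the 113 passed, Nek7 and Pycard, where 2.21% of all genes tested were called.

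**Figure D4:**
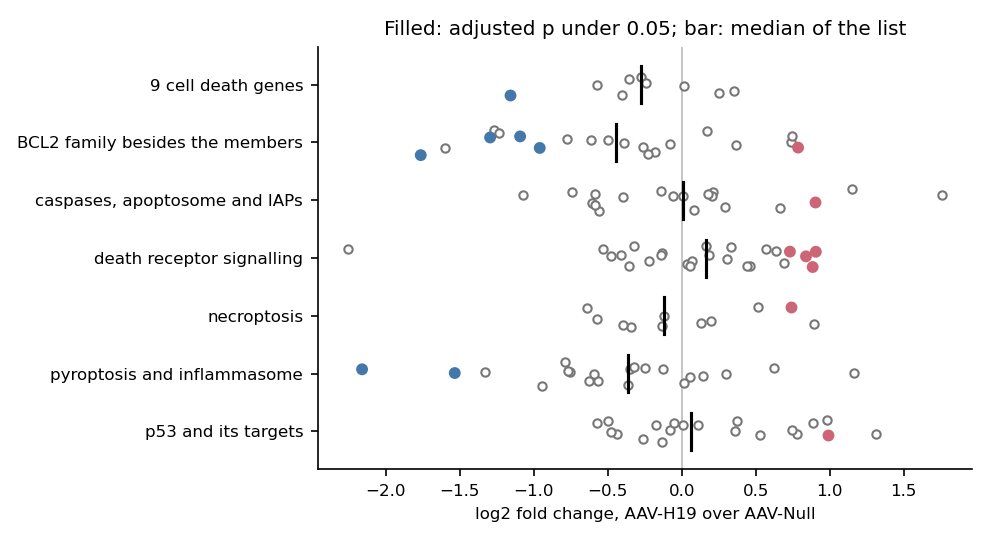
Fitted log2 fold change, AAV-H19 over AAV-Null (horizontal axis), of the 9 cell death genes and of the tested genes of 6 lists (rows; points are genes, spread vertically at random). Filled points passed an edgeR adjusted p of 0.05 (red higher, blue lower), open points did not, and black bars are list medians, which run from -0.45 for the other BCL2 family genes to 0.16 for death receptor signalling.

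Besides the members, 4 of the 20 BCL2 family genes tested fell, 1 rose and 15 did not pass, with a median log2 change of -0.45. Bok, a BAX-like family member, was at 7.03, 13.3, 7.53 and 5.59 CPM in AAV-Null livers 21 to 24 and at 3.50, 3.03, 3.798 and 3.28 CPM in AAV-H19 livers 25 to 28. It fell by 1.30 ± 0.28 log2 units (SE, edgeR adjusted p = 0.0249). The BH3-only genes Bik and Bad, whose products oppose the anti-apoptotic family members, fell by 0.96 ± 0.24 and 1.09 ± 0.30 (edgeR adjusted p = 0.0372 and 0.0437). Bad stood at 34.01 CPM in AAV-Null 22, against 12.9 to 17.5 CPM in livers 21, 23 and 24, and its log2 change was -0.71 without AAV-Null 22. Bcl2l13, which encodes a mitochondrial family member, rose by 0.79 ± 0.16 (edgeR adjusted p = 0.0219), and its mean level went from 30.9 ± 4.87 to 53.3 ± 2.92 CPM (SD, n = 4 each).

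Bcl2a1b, an anti-apoptotic gene of blood cells, fell by 1.76 ± 0.46 (edgeR adjusted p = 0.039), and its mean level went from 1.91 ± 0.52 to 0.562 ± 0.357 CPM (SD, n = 4 each). It has near-identical paralogs in Bcl2a1a and Bcl2a1d, so the split of reads among them is uncertain. The 13 Kupffer cell and macrophage markers had sums of 314 to 490 CPM with AAV-Null and 183 to 252 CPM with AAV-H19. Of the 13, 8 fell, where 6.07% of all genes tested were called lower. These values are without the length offset, and the part of such cells in the fall of Bcl2a1b was not tested. In bulk liver, fewer cells of a type and less RNA per cell cannot be told apart. The 4 genes of the family that fell have transcripts of 817 to 1533 nt, Bcl2l13 has 6925 nt, and none of the 5 passed with the length offset (edgeR adjusted p of 0.0697 to 0.343). All 5 calls ended without AAV-H19 25, 27 or 28 and at least 1 of them without AAV-H19 26 or AAV-Null 22, 23 or 24, with edgeR adjusted p of up to 0.124. Without both AAV-Null 22 and 24 the calls of Bok and Bcl2l13 held and those of Bik, Bad and Bcl2a1b ended (log2 changes -0.66, -0.59 and -1.51, edgeR adjusted p = 0.0719, 0.0615 and 0.104). The BH3-only genes Bcl2l11 and Bbc3, which encode BIM and PUMA, had log2 changes of 0.74 ± 0.32 and -0.08 ± 0.46, and Bcl2 was at 0.841 to 2.09 CPM with a change of -0.18 ± 0.34 (SE, edgeR adjusted p = 0.158, 0.926 and 0.757).

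Of 19 caspase, apoptosome and inhibitor-of-apoptosis genes, Birc6 rose, none fell and 18 did not pass; their median log2 change was 0.01. Birc6, which encodes a giant ubiquitin ligase that binds caspases, was at 32.6, 31.0, 32.9 and 26.1 CPM in AAV-Null livers 21 to 24 and at 60.4, 59.9, 59.6 and 48.5 CPM in AAV-H19 livers 25 to 28. It rose by 0.90 ± 0.15 log2 units (SE, edgeR adjusted p = 0.0134). Its transcript is 15768 nt long, the change was 0.32 with the length offset (edgeR adjusted p = 0.231), and the call ended without AAV-H19 25 or 27, with edgeR adjusted p of up to 0.0637. It held without both AAV-Null 22 and 24 (log2 change 0.80, edgeR adjusted p = 0.0134). The initiator Casp9 was at 0.727, 5.37, 7.41 and 1.03 CPM in AAV-Null livers 21 to 24 and at 5.37 to 10.05 CPM in AAV-H19 livers, for a log2 change of 1.15 ± 0.65 (SE, edgeR adjusted p = 0.266). For Apaf1, the scaffold of the apoptosome, the log2 change was 0.66 ± 0.29 (edgeR adjusted p = 0.163).

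In death receptor signalling 4 of 25 genes rose, none fell and 21 did not pass, with a median log2 change of 0.16. Tab2 and Tab3 encode adaptors that bring the kinase TAK1 to ubiquitin chains. Tab2 was at 46.6, 37.8, 39.7 and 35.8 CPM in AAV-Null livers 21 to 24 and at 81.0, 57.9, 68.3 and 58.0 CPM in AAV-H19 livers 25 to 28, and it rose by 0.73 ± 0.17 log2 units (SE, edgeR adjusted p = 0.0296). Tab3 rose by 0.84 ± 0.20 (edgeR adjusted p = 0.0334). Tnfrsf1b, the second TNF receptor, which lacks a death domain, rose by 0.88 ± 0.23 (edgeR adjusted p = 0.0374), and Tnfaip3, which restrains NF-kappa B signalling, by 0.91 ± 0.24 (edgeR adjusted p = 0.0416). Their transcripts span 3818 to 6364 nt. The length offset gave log2 changes of 0.40 to 0.73, and none passed.

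All 4 calls ended when any 1 of the AAV-H19 libraries was left out, and at least 1 of them ended without each AAV-Null library, with edgeR adjusted p of up to 0.12. Without both AAV-Null 22 and 24 the call of Tnfaip3 ended (log2 change 0.76, edgeR adjusted p = 0.0972) and the other 3 held. Tnfrsf1a, which encodes the TNF receptor with a death domain, had mean levels of 89.6 ± 23.6 CPM with AAV-Null and 111 ± 16.6 CPM with AAV-H19 (SD, n = 4 each), a log2 change of 0.30 ± 0.22 (SE, edgeR adjusted p = 0.38). The adaptors Fadd and Tradd had log2 changes of 0.03 ± 0.25 and -0.48 ± 0.18 (edgeR adjusted p = 0.944 and 0.113). Cflar, which encodes the inhibitor of caspase-8 activation cFLIP, was at 10.7, 39.1, 39.9 and 12.5 CPM in AAV-Null livers 21 to 24 and at 21.4, 20.9, 17.4 and 47.7 CPM in AAV-H19 livers 25 to 28. It split both groups into low and high livers, and its log2 change was 0.07 ± 0.49 (edgeR adjusted p = 0.939).

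Of 11 necroptosis genes, Ticam1 rose, none fell and 10 did not pass; the median log2 change was -0.12. Ticam1, which encodes the adaptor TRIF of Toll-like receptors, was at 17.8, 12.9, 19.7 and 14.1 CPM in AAV-Null livers 21 to 24 and at 32.2, 24.2, 28.6 and 22.5 CPM in AAV-H19 livers 25 to 28, and rose by 0.74 ± 0.19 log2 units (SE, edgeR adjusted p = 0.0406). With the length offset its log2 change was 0.72 (edgeR adjusted p = 0.0609), and the call ended without any 1 of the 4 AAV-H19 libraries and without AAV-Null 22 or 24, with edgeR adjusted p of up to 0.124. Without both of these AAV-Null libraries the log2 change was 0.52 (edgeR adjusted p = 0.0809). Ripk3, the kinase that drives necroptosis, was at 0.241 to 2.07 CPM in the 8 livers, and Mlkl, its pore-forming target, at 3.40 to 9.73 CPM. The fitted changes were -0.64 ± 0.57 and -0.34 ± 0.32 log2 units (SE, edgeR adjusted p = 0.489 and 0.512).

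In the pyroptosis and inflammasome list 2 of 21 genes fell, none rose and 19 did not pass, with a median log2 change of -0.36. Nek7, a kinase that binds NLRP3 and is needed for its inflammasome, was at 30.4, 52.3, 33.1 and 53.2 CPM in AAV-Null livers 21 to 24 and at 13.8, 14.8, 15.1 and 14.6 CPM in AAV-H19 livers 25 to 28. The AAV-H19 livers were close together and all were below every AAV-Null liver. Within the AAV-Null group Nek7 was highest in livers 22 and 24, the pair that stood apart by mitochondrial RNA. Nek7 fell by 1.53 ± 0.21 log2 units (SE, edgeR adjusted p = 0.00729), or 2.90-fold. It kept its call whichever of the 8 libraries was left out (edgeR adjusted p of 0.00816 to 0.0383) and also with the length offset, where its log2 change was -1.94 (edgeR adjusted p = 0.0138). Its longest transcript has 5258 nt. Without both AAV-Null 22 and 24 the call held with a smaller change (log2 change -1.12, edgeR adjusted p = 0.00324).

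Pycard encodes ASC, the adaptor that joins NLRP3 to caspase-1. It was at 1.03, 3.19, 0.954 and 2.44 CPM in AAV-Null livers 21 to 24 and at 0.456, 0.413, 0.564 and 0.261 CPM in AAV-H19 livers 25 to 28. It fell by 2.16 ± 0.48 log2 units (SE, edgeR adjusted p = 0.0264), and its log2 change was -2.36 with the length offset (edgeR adjusted p = 0.047). Its call ended without any 1 of the AAV-H19 libraries or without AAV-Null 24, with edgeR adjusted p of up to 0.0832. Pycard too was highest in AAV-Null 22 and 24, and without both its log2 change was -1.22 and the call ended (edgeR adjusted p = 0.0986). ASC is abundant in myeloid cells. Of the Kupffer cell and macrophage markers 8 of 13 fell, as given above for Bcl2a1b. Of 8 neutrophil markers 4 were tested and none passed. The part of such cells in the fall of Pycard was not tested. Nlrp3 was at 0.0566 to 0.651 CPM, with a log2 change of 0.63 ± 0.65, and the inflammatory caspase genes Casp1 and Casp4 had log2 changes of -0.79 ± 0.31 and -0.25 ± 0.30 (SE, edgeR adjusted p = 0.556, 0.121 and 0.608). Gsdma and Gsdmc, paralogs of Gsdmd, were at 0 counts in all 8 libraries.

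**Figure D5:**
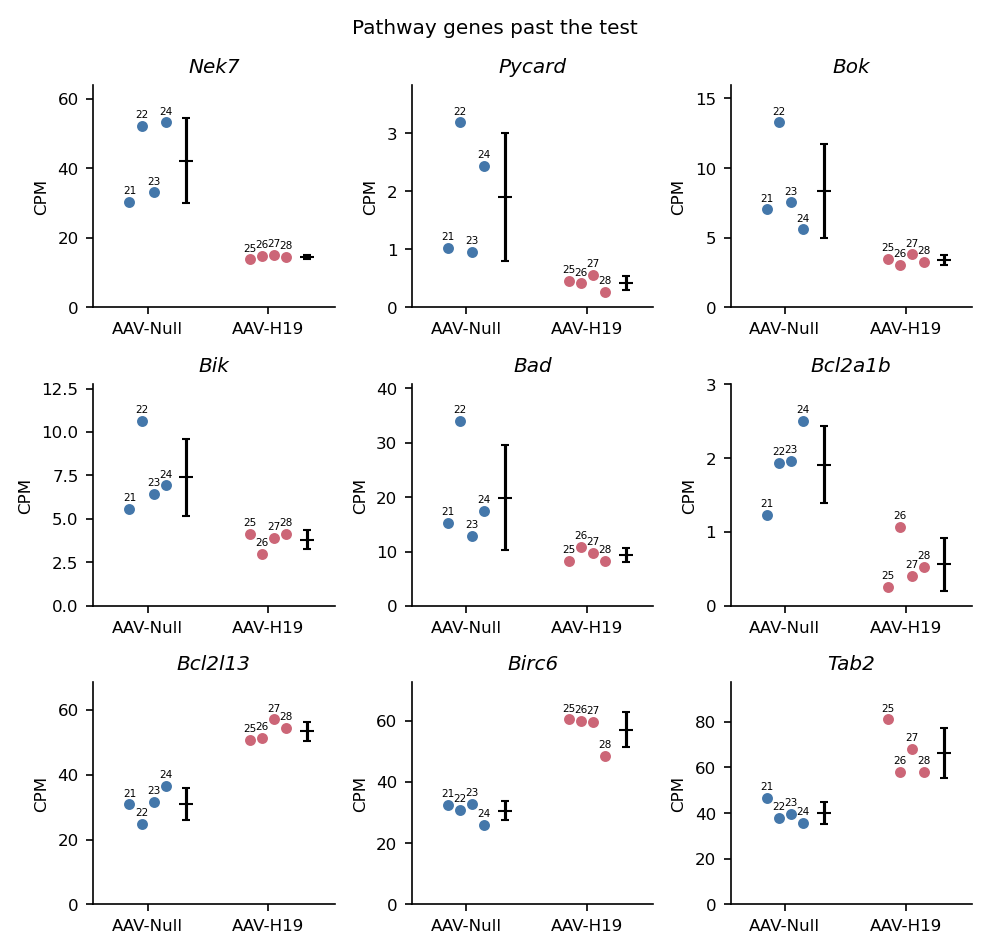
Level in CPM (vertical axes, from 0) of 9 of the 14 list genes that passed the test, in each AAV-Null liver (blue) and AAV-H19 liver (red), with the liver's number above each point and the mean ± SD of 4 livers as a black bar. The groups do not overlap in any of the 9, against 23.7% of all genes tested. The 9 were picked from genes that passed this same comparison, so the lack of overlap is no further support. For Nek7 the AAV-H19 livers lie at 13.8 to 15.1 CPM and the AAV-Null livers at 30.4 to 53.2 CPM.

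Of 20 genes of p53 and its targets, a list that includes inducers of apoptosis, Sesn2 rose, none fell and 19 did not pass; the median log2 change was 0.06. Sesn2, a stress-induced inhibitor of mTORC1, rose by 0.99 ± 0.26 log2 units (SE, edgeR adjusted p = 0.0391), with mean levels of 23.02 ± 5.73 and 45.6 ± 13.7 CPM (SD, n = 4 each). Under the length offset its log2 change was 0.90 (edgeR adjusted p = 0.0895). The call ended when any 1 library other than AAV-Null 24 was left out, with edgeR adjusted p of up to 0.122. It also ended without both AAV-Null 22 and 24 (log2 change 1.06, edgeR adjusted p = 0.0561).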

How the data were processed

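RNA sequencing of 8 livers was analysed from a deposited table of estimated counts (expected counts) per Ensembl gene, with a column per sample named as in its description. Per the labels' protocols the libraries were poly(A) and strand-specific, and HISAT and StringTie are named in the processing notes of the submitters; their versions, the genome build, the annotation and the counting step are not stated there. The deposited counts were whole numbers, but a value of 4 was held by 820 to 990 genes in each library and a value of 3 by only 226 to 285, so a unit is not a read and counting error exceeds what the counts alone give. All 55450 identifiers matched GENCODE M21 (GRCm38), the source of symbols, positions, overlaps and transcript lengths. Where a symbol had 2 identifiers (Ddit3), the one with more counts was used.

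Genes were filtered with filterByExpr (minimum count 10, minimum total 15), leaving 16672, scaled by TMM and tested with edgeR 4.0.16 (glmQLFit, robust; glmQLFTest) in R 4.3.3, with Benjamini-Hochberg adjustment over all genes tested calling genes under 0.05. Common BCV, the biological coefficient of variation, was 0.389. An SE is the log2 change divided by the square root of F. The labels name no litters, days or batches, so the p-values reflect only how these samples spread, which may be technical in part. The length offset was each library's trend of log2 CPM (prior count 2) with the log2 length of the longest transcript (natural spline, 5 degrees of freedom). In counts simulated for this comparison without a length trend (16181 genes), the test recovered 16% of 2-fold and 80% of 4-fold changes and called 6 unchanged genes. With the offset in the same setting it recovered 16% and 80% and called 7 unchanged genes. No trend was there to take out, so this match does not measure what the offset costs. A length trend was then simulated, equal in all AAV-H19 libraries and absent from AAV-Null libraries, whereas the real trends differed among libraries. Under this simulated trend (16060 genes), the test called 776 unchanged genes without the offset and 9 with it. Recovery of 2-fold changes went from 49% to 26% and that of 4-fold changes from 91% to 86%. The fit without the offset also called many unchanged genes there, so these drops do not measure what the offset costs a true change.

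The members, the 6 pathway lists and 7 marker lists were chosen with earlier results of these data known. The genes named were the members, H19, up to 6 called genes per list with the smallest p, a set list of core machinery genes, and for each member the 2 list genes with the highest r, of which some are printed; 1 core gene is not reported here. Gm45808, Dhdh, Gm17084, Serpinb6a, Ggnbp1, Gsdma, Gsdmc, Bcl2a1a and Bcl2a1d were named for what bears on a member or a named gene. Alternatives were DESeq2 size factors, upper-quartile factors, DESeq2 1.42.0, limma-voom (limma 3.58.1), no filter, 1 CPM in 4 libraries, the length offset, values divided by 4, overlapping genes summed, and each library left out. Added after seeing the data were members summed with directly overlapping genes and AAV-Null 22 and 24 left out together.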

Additional observations from a re-analysis of the deposited data

Results flagged for a closer look

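In 5 of 76 sets of 4 livers, the set being a named gene in 1 group, a single liver lay far from the other 3 by Dixon's criterion, which chance meets in about 1 set in 20. Casp8 stood at 31.3 CPM in AAV-Null 24, against 18.9 to 19.3 CPM in livers 21 to 23. Birc6 was at 48.5 CPM in AAV-H19 28, against 59.6 to 60.4 CPM in livers 25 to 27. Bcl2 was at 2.09 CPM in AAV-Null 21, against 1.03 to 1.17 CPM in the rest of its group. Cflar was at 47.7 CPM in AAV-H19 28, against 17.4 to 21.4 CPM, and Ripk3 was at 0.241 CPM in AAV-Null 22, against 1.88 to 2.07 CPM.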

How the results depend on the processing

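The fitted change of Bax was negative under every alternative run, and lowest with upper-quartile factors (-1.27). With overlapping genes summed the value of -0.28 is that of Bax, Gm45808 and Dhdh together, not of Bax alone. Of the 9 genes past the test, 1 in the reported fit, there were 0 with the length offset and 0 to 1 with a library left out. There were also 0 with overlapping genes summed, where Bax is counted only within that sum. Fitted changes that turned sign were all of genes that did not pass: Ripk1 was at -0.22 with the length offset, and Casp8 at -0.018 with 1 CPM in 4 libraries, -0.0098 with DESeq2 or its size factors and -0.092 with upper-quartile factors. With the length offset Bbc3 was at 0.10, Fadd at -0.12 and Cflar at -0.39, and with upper-quartile factors Fadd and Cflar were at -0.073 and -0.037. With a library left out, log2 changes ranged from -0.51 to 0.23 for Bcl2l1, -0.062 to 0.23 for Casp8, -0.30 to 0.11 for Bcl2, -0.59 to 0.23 for Bbc3, -0.16 to 0.16 for Fadd and -0.36 to 0.35 for Cflar. Over all genes, 1635 were higher and 2010 lower with DESeq2, 235 and 134 with the length offset, 1557 lower with upper-quartile factors, and 86 to 1023 higher and 27 to 1050 lower with a library left out. With the length offset the lists of the BCL2 family, caspases, death receptors, necroptosis and p53 each held 0 called genes. DESeq2 called 4 caspase, 8 death receptor, 2 necroptosis, 4 pyroptosis and 2 p53 genes. The caspase list held 4 with 1 CPM in 4 libraries, 3 with values divided by 4, 2 with overlapping genes summed and 4 with upper-quartile factors, which left 0 in the necroptosis list; limma-voom gave 1 pyroptosis and 2 p53 genes. With a library left out the counts were 0 to 5 (BCL2 family), 0 to 4 (caspases), 0 to 4 (death receptors), 0 to 2 (necroptosis), 1 to 3 (pyroptosis) and 0 to 2 (p53). Without both AAV-Null 22 and 24, chosen after seeing the data, the BCL2 family list held 2, caspases 3, necroptosis 2 and p53 2, and log2 changes turned sign for Bcl2l1 (0.045), Fadd (-0.23), Casp4 (0.11) and Nlrp3 (-0.051). Counts over all genes are not given here for limma-voom, 1 CPM in 4 libraries, values divided by 4 or overlapping genes summed. Nor are they given without both AAV-Null 22 and 24. The list counts under these settings therefore do not show whether a list moved apart from all genes. The cause was not tested; with a library left out there are fewer samples. No paired analysis was possible because the groups share no replicate number. Genes at low counts rest on few reads: Nlrp3 had at most 58 estimated counts in a library.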
